A study of Neogale vison with 6 samples.

Results

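The BCL2 family comprises the proteins that decide whether the outer membrane of mitochondria stays intact. Its pro-survival proteins (BCL2, BCL-XL encoded by BCL2L1, and MCL1) bind and restrain the pro-death proteins. The pro-death effectors BAX and BAK (encoded by BAK1) form pores in the membrane, through which cytochrome c reaches the cytosol and starts the caspase cascade. The pro-death BH3-only proteins, such as BIM (encoded by BCL2L11), BID, BIK, PUMA (BBC3) and NOXA (PMAIP1), carry a single short helix with which they occupy the pro-survival proteins or activate the effectors. The transcripts of these 10 genes, 3 pro-survival and 7 pro-death, were followed in Mv1Lu cells, an established mink lung line, sequenced in 3 libraries without treatment (control) and 3 after cholesterol depletion (CD). CD consisted of 16 h with the HMG-CoA reductase inhibitor lovastatin (50 μM) and mevalonate (50 μM) in medium in which the serum was 10% LPDS, fetal calf serum freed of lipoproteins, so that statin, mevalonate and the change of serum cannot be told apart. Both groups are of the same cell line, and the labels give no agent for the control. They do not say whether the libraries of a group came from separate cultures, so that the tests measure the spread between these libraries.

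Of the 10 genes, 7 had a row among the 24526 genes of the count table. BCL2, BCL2L1, MCL1 and BAX were listed under their own symbol. BAK1 and BCL2L11 were listed as BAK and B2L11 and were recognized by the gene description of the same row. PMAIP1 was found by its description only, in a row without a symbol that held 0 reads in all 6 libraries, which, at a floor of 3 counts, allows up to 0.165 to 0.217 CPM (counts scaled to library size) for this row, depending on the library. BID, BIK and BBC3 were not found by symbol or description and were not analysed here. All 10 symbols occur in the RefSeq annotation of another mink assembly (ASM_NN_V1). Hence 6 members, 3 pro-survival and 3 pro-death, had enough reads to be tested, and BCL2L11 was the only BH3-only gene of the 10 that could be.

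Reads on genes numbered between 13473820 and 18633764 per library. The CD libraries differed from each other more than the control libraries did (biological coefficient of variation 0.213 and 0.0852), and on the second principal component, with 12.9% of the variance, CD replicates 1 and 3 lay at opposite ends. Unmapped reads made up 18.4%, 13.6% and 4.25% of control and 3.54%, 4.33% and 9.37% of CD replicates 1, 2 and 3, and their part in the results was not tested. HMGCS1, a sterol-regulated enzyme of cholesterol synthesis, was at 112 to 142 CPM in control and at 1159 to 1638 CPM in CD. The epithelial markers EPCAM, CDH1 and CLDN7 were at or below 0.432 CPM in every library, whereas KRT19 was abundant and lower in CD (883 to 1011 CPM in control, 379 to 533 CPM in CD) and CLDN4 was low and higher in CD (0.441 to 0.867 and 5.84 to 8.04 CPM). Of 4 mesenchymal markers, VIM was abundant (3690 to 4788 CPM) and not called, and the other 3 were lower in CD, with log2 fold changes of -1.08 to -0.37. The leukocyte marker PTPRC had 1 read in all. The summed level of the leukocyte list, PTPRC and CD68, went from 5.13 to 5.62 CPM in control to 16.9 to 22.4 CPM in CD, nearly all of it CD68, and its part in the results was not tested.

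Levels are given as CPM after TMM scaling, and changes as log2 fold changes (CD over control) from the quasi-likelihood test of edgeR over all 12148 genes with enough reads, with the standard error (SE) and the false discovery rate (FDR, Benjamini-Hochberg over all genes tested). A gene was called at an FDR under 0.05. In this comparison 47.7% of all tested genes were called (24.8% higher and 22.9% lower in CD), the 3 CD libraries lay entirely above or below the 3 control libraries for 58.0%, and the median log2 fold change was 0.06. Against this background, 5 of the 6 tested BCL2 family members were called, 2 higher (BCL2L11 and MCL1) and 3 lower (BCL2, BCL2L1 and BAK1), which, with 6 genes, is not read as an excess over the share of all genes. By role, 1 pro-survival member rose and 2 fell, at a median of -0.66 on the log2 scale, and of the 3 pro-death members tested 1 rose, 1 fell and BAX did not pass, with a median of 0.30. CPM values were not divided by transcript length, for want of gene models of the assembly used, and are therefore compared between libraries and not between genes. As a whole culture was sequenced, fewer cells that express a gene and less of its RNA per cell cannot be told apart.

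**Figure D1:**
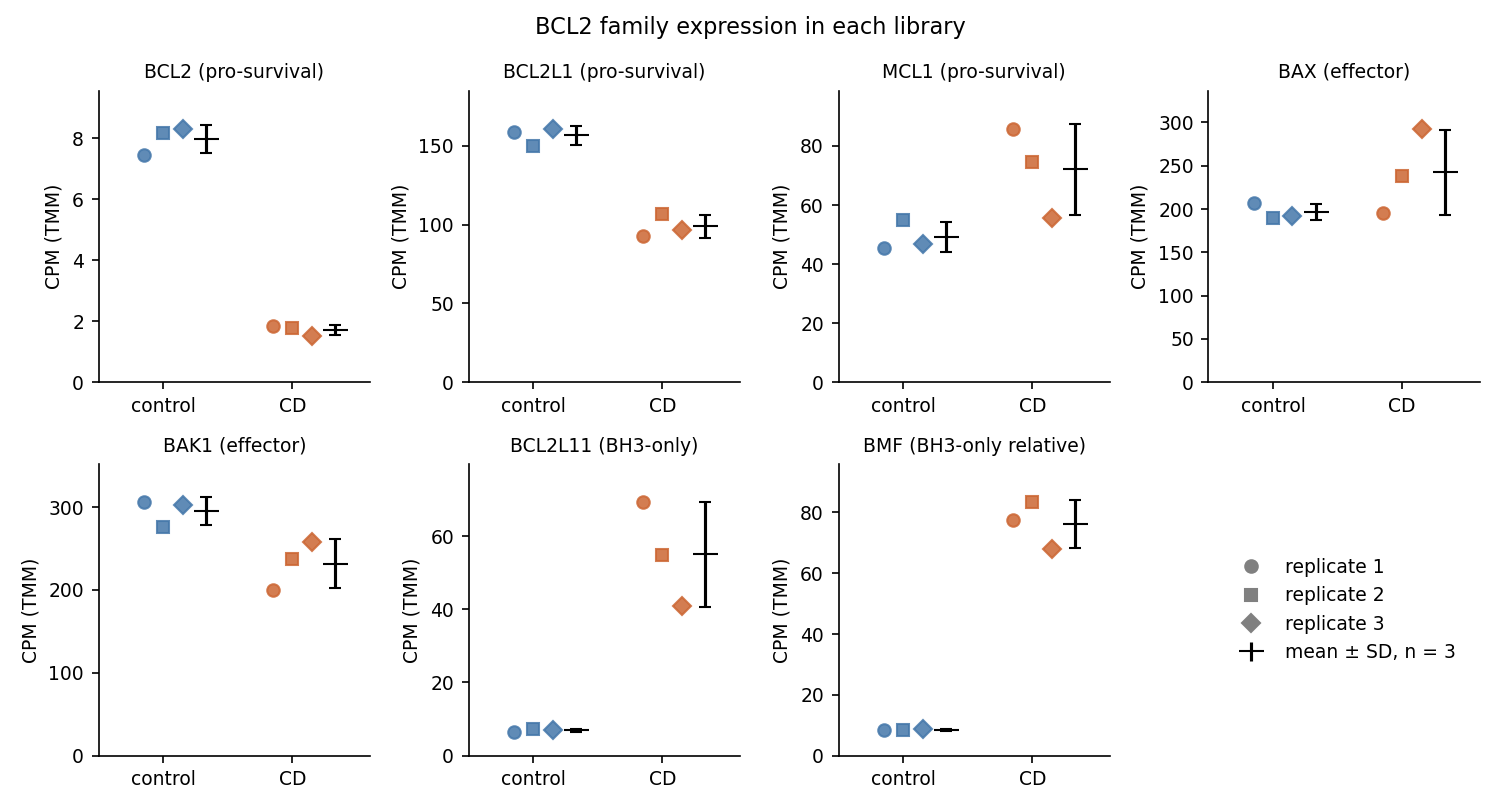
CPM (TMM scaled, linear axis from 0) of the 6 tested BCL2 family members and of the BH3-only relative BMF in each library. Symbols mark the replicate and the bar beside each group is the mean ± SD of 3 libraries. BCL2 and BCL2L1 were lower and BCL2L11 and BMF higher in all 3 CD libraries, while the CD libraries of BAX overlapped the control.

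The pro-survival genes did not move together. BCL2, the founding member of the family, was at 7.45, 8.17 and 8.32 CPM in the control libraries (replicates 1, 2 and 3, an order kept throughout) and at 1.84, 1.78 and 1.51 CPM in those of CD. All CD libraries lay far below all control libraries, and the spread within each group was small beside the gap. The mean fell from 7.98 ± 0.464 to 1.71 ± 0.175 CPM (SD, n = 3 each), and the log2 fold change was -2.21 (SE 0.20, FDR 1.80e-05, edgeR), or 4.63-fold lower. These levels rest on 368 reads in control and 80 in CD. A log2 fold change as low as that of BCL2 or lower was seen for 1.84% of the tested genes, and 9.64% and 2.49% of them were called and at least 2-fold and 4-fold lower in CD.

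BCL2L1, which gives rise to the pro-survival BCL-XL and by alternative splicing to the shorter, pro-death BCL-XS, had 159, 150 and 161 CPM in the control and 93.1, 107 and 96.8 CPM in the CD replicates. The groups did not overlap. The log2 fold change was -0.66 (SE 0.11, 95% interval -0.90 to -0.42, FDR 6.98e-04, edgeR), or 1.58-fold lower. The counts are per gene, so the BCL-XL and BCL-XS transcripts cannot be told apart here.

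MCL1, whose protein is turned over within a short time and whose level therefore follows its synthesis closely, was the pro-survival member that rose. Its values were 45.6, 54.9 and 46.8 CPM in control and 85.9, 74.7 and 55.5 CPM in CD replicates 1, 2 and 3. CD replicate 3 came close to control replicate 2, so that the groups were separated by a narrow margin. The log2 fold change was 0.55 (SE 0.17, 95% interval 0.18 to 0.93, FDR 0.0202, edgeR), or 1.47-fold. The call was lost without control replicate 1 or 3 (FDR 0.0859 each) and without CD replicate 1 (0.0514) or 2 (0.0755), at log2 fold changes of 0.50, 0.52, 0.42 and 0.49 (edgeR).

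Of the pro-death effectors, BAX was not called and BAK1 was lower by a small margin. BAX was at 207, 190 and 192 CPM in control and at 196, 238 and 293 CPM in CD replicates 1, 2 and 3. CD replicate 1 lay within the control range and CD replicate 3 well above it. The log2 fold change was 0.30 (SE 0.15, 95% interval -0.02 to 0.63, FDR 0.115, edgeR). Without CD replicate 1 the log2 fold change was 0.44 and BAX was called (FDR 0.0129, edgeR), and without CD replicate 3 it was 0.11.

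BAK1 had 306, 276 and 303 CPM in control and 200, 237 and 258 CPM in CD replicates 1, 2 and 3. Every CD library was below every control library. The log2 fold change was -0.35 (SE 0.12, 95% interval -0.63 to -0.07, FDR 0.0394, edgeR), or 1.27-fold lower. This call did not withstand the omission of any library other than CD replicate 3, with an FDR of 0.137, 0.0605 and 0.120 without control replicate 1, 2 and 3, and of 0.0867 and 0.0750 without CD replicate 1 and 2 (edgeR).

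BCL2L11, which encodes BIM, a BH3-only protein that binds all pro-survival proteins of the family, showed the largest change of the 6 tested members. Its values were 6.52, 7.37 and 6.89 CPM in control and 69.3, 54.9 and 40.8 CPM in CD replicates 1, 2 and 3. Even the lowest CD library was several times above the highest control library. The mean rose from 6.93 ± 0.428 to 55.0 ± 14.3 CPM (SD, n = 3 each), and the log2 fold change was 2.99 (SE 0.21, 95% interval 2.53 to 3.45, FDR 3.10e-06, edgeR), or 7.94-fold. It rests on 318 reads in control and 2589 in CD. BCL2L11 ranked 122 from the top among the 12148 tested genes, of which 2.63% were called and at least 4-fold higher in CD. The spread among the CD libraries was wide, and without CD replicate 1 or 3 the log2 fold change was 2.80 or 3.13.

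**Figure D2:**
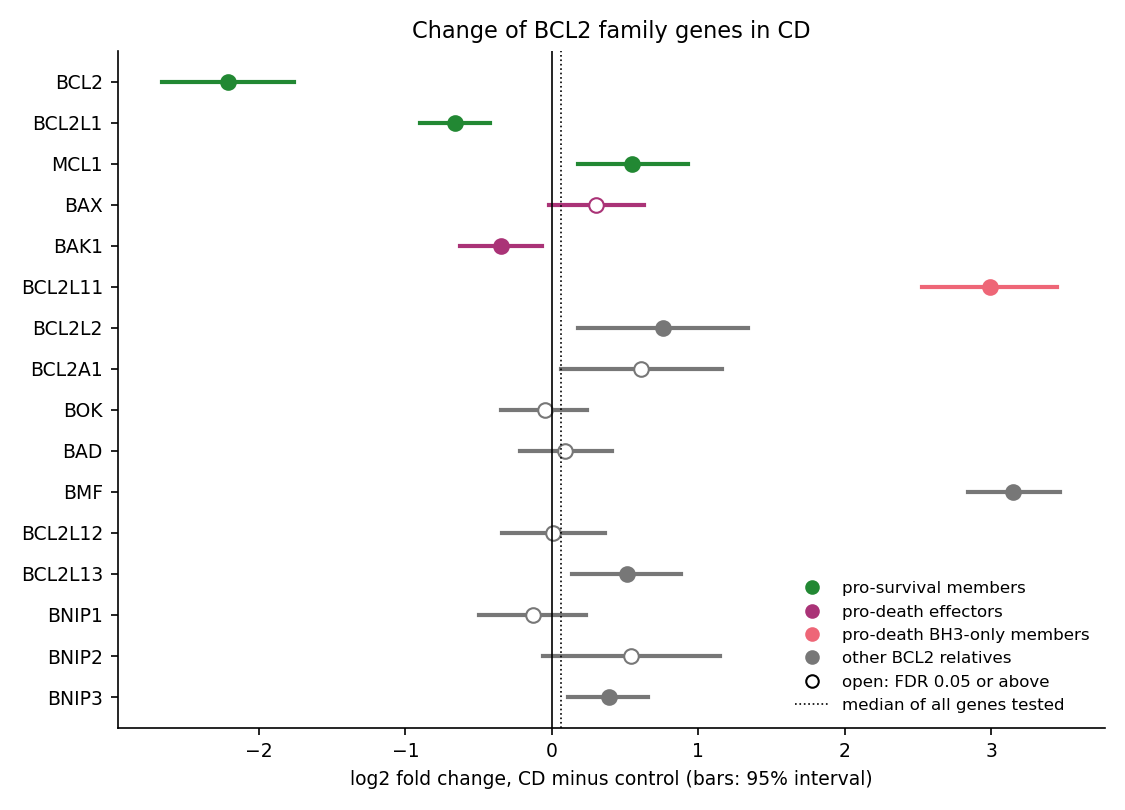
Log2 fold change, CD over control (horizontal axis), for the 6 tested members and 10 tested relatives of the BCL2 family, with 95% intervals from edgeR. Filled points were called at an FDR under 0.05, and the dotted line is the median of all genes tested (0.06). BCL2 stands alone on the left at -2.21, and BCL2L11 and BMF lie together on the right at 2.99 and 3.15.

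The closest relatives of these genes were examined with a list of 16, of which 12 had a row and 10 were tested. In CD, 4 were higher, none was lower and 6 were not called, so that the share called (40.0%) was below the 47.7% of all tested genes, at a median of 0.45 on the log2 scale. None was lower at an unadjusted p under 0.05 either (edgeR), and DESeq2 likewise called 4 higher and 0 lower. BMF, a BH3-only protein that is held at the cytoskeleton in attached cells, rose most, from 8.45, 8.31 and 8.93 CPM in control to 77.4, 83.4 and 67.8 CPM in CD. Its groups were as far apart as those of BCL2L11, with a tighter spread among the CD libraries. The log2 fold change was 3.15 (SE 0.14, FDR 3.04e-07, edgeR), or 8.89-fold, and 0.905% of the tested genes reached this value. Called genes at least 8-fold higher in CD made up 0.980% of those tested.

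The other higher relatives changed less. BCL2L2, which encodes the pro-survival BCL-W, was at 3.51 to 4.41 CPM in control and 5.26 to 9.65 CPM in CD, with a log2 fold change of 0.76 (SE 0.26, FDR 0.0351, edgeR). A readthrough transcript of BCL2L2 and PABPN1 was not found in the count table. Whether such a transcript adds to the count of BCL2L2 was not tested, so this count may be uncertain. BCL2L13, a mitochondrial protein that also serves as a receptor for mitophagy, had a log2 fold change of 0.51 (SE 0.16, FDR 0.0281, edgeR), and BNIP3, another mitophagy receptor, of 0.39 (SE 0.12, FDR 0.0250, edgeR). These 3 calls depended on single libraries, as only BMF was called without control replicate 1, 2 or 3, and 2 relatives were called without CD replicate 2. BAD, a BH3-only protein controlled by phosphorylation, had a log2 fold change of 0.09 (SE 0.14, FDR 0.608, edgeR), and BOK, a relative of BAX, of -0.05 (SE 0.13, FDR 0.768, edgeR). BCL2A1, a pro-survival relative listed as B2LA1, was at 4.70 to 5.18 CPM in control and 5.41 to 10.2 CPM in CD without being called (FDR 0.0648, edgeR).

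The balance between opposing members was read from ratios of their counts within each library, which do not depend on how libraries are scaled. The pairs were chosen after their values were seen, the ratios are given without a test, and only the libraries, not the members of a pair, can be compared. For each read of BCL2 there were 0.875, 0.903 and 0.828 reads of BCL2L11 in the control libraries and 37.6, 30.9 and 27.0 in the CD libraries. The ratio of the geometric means was 36.3. Against MCL1, the pro-survival gene that rose, BCL2L11 went from 0.143, 0.134 and 0.147 reads per read to 0.807, 0.735 and 0.734, or 5.36-fold. In this ratio the CD libraries were close together although BCL2L11 and MCL1 each spread widely among them. Genes outside the family, such as USP9X and HIF1A, also fell from CD replicate 1 to 3, whereas BAX rose. The closeness is therefore not read as particular to this pair.

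Against BCL2L1, reads of BCL2L11 were 12.3-fold, of BMF 14.1-fold, of MCL1 2.30-fold and of BAK1 1.24-fold higher in CD, whereas reads of BCL2 went from 0.0468, 0.0545 and 0.0518 to 0.0198, 0.0167 and 0.0156 per read of BCL2L1, or 2.95-fold lower. The ratio of MCL1 to BCL2L1 was 0.286, 0.366 and 0.291 in control and 0.923, 0.701 and 0.574 in CD, with no overlap. Reads of BAX per read of BCL2L1, a ratio of an effector to the protein that restrains it, were 1.3, 1.27 and 1.20 in control and 2.11, 2.23 and 3.02 in CD, or 1.93-fold. Between the effectors, BAX went from 0.677, 0.686 and 0.635 to 0.983, 1.0 and 1.13 reads per read of BAK1, or 1.56-fold. The groups did not overlap in this ratio, although they did in BAX itself.

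**Figure D3:**
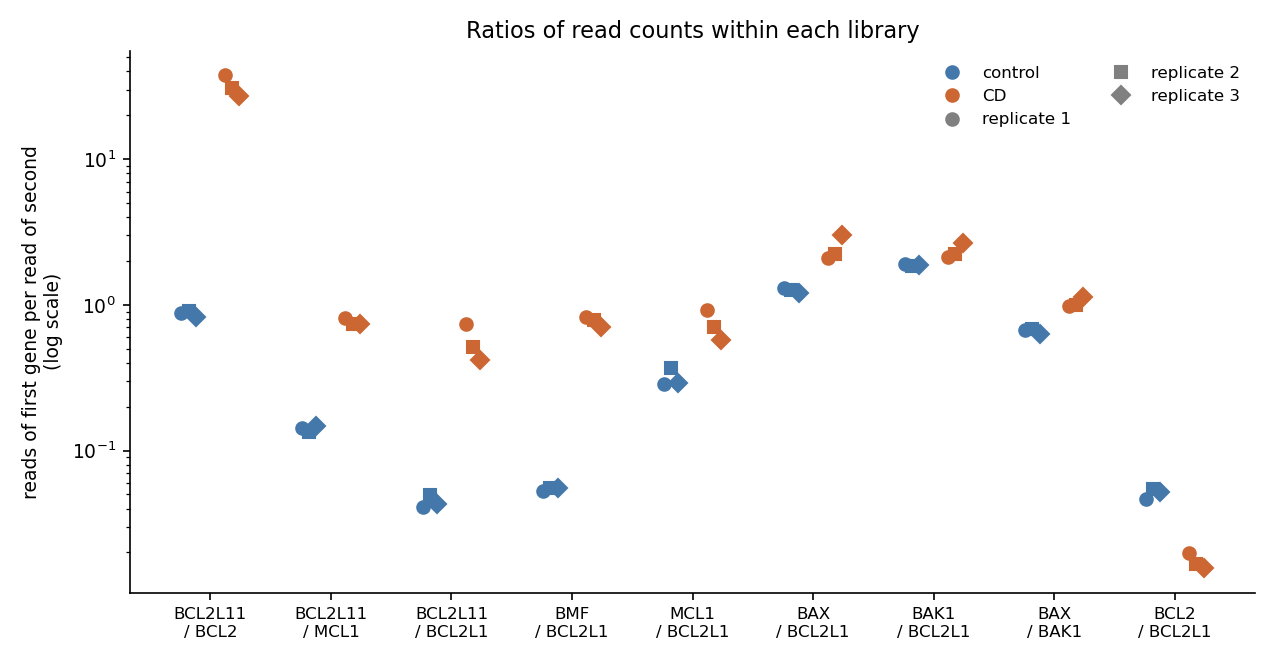
Reads of the first gene per read of the second within each library, on a log axis, for the 9 pairs of BCL2 family genes computed. Control libraries are blue, CD libraries orange, and symbols mark the replicate. The CD libraries lie above the control libraries for all pairs, from 1.24-fold (BAK1 to BCL2L1) to 36.3-fold (BCL2L11 to BCL2), other than BCL2 to BCL2L1, for which they lie below.

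Downstream of the family, cytochrome c joins APAF1 and caspase 9 in the apoptosome, which starts the caspase cascade. Of a list of 9 genes, these 3 and the caspases of other routes, 8 were found and tested (APAF1 was not found), and 4 were higher and 1 lower in CD (62.5% called, against 47.7% of all tested genes). The median log2 fold change of the 8 was 0.66. CASP8, the initiator caspase of death receptors, rose by 1.49 on the log2 scale (SE 0.11, FDR 5.44e-06, edgeR), and CASP6, named after its value was seen, by 1.03. CASP2 fell from 63.3, 55.0 and 65.0 CPM to 27.9, 23.3 and 22.0 CPM (log2 fold change -1.33, SE 0.14, FDR 4.94e-05, edgeR). Of the apoptosome itself neither gene found was called, as the log2 fold change of CASP9 was 0.30 (SE 0.14, FDR 0.0958, edgeR) and that of CYCS, which encodes cytochrome c, was -0.19 (SE 0.22, FDR 0.510, edgeR). Without CD replicate 3, 2 genes of this list were called lower.

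Among factors released from mitochondria and proteins of their membranes, 11 of 14 genes were tested, 1 was higher and 4 were lower, at a median of -0.23 on the log2 scale. The share called, 45.5%, was close to the 47.7% of all tested genes and is not read as a result about this list. Of the lower genes, ENDOG, a nuclease of the intermembrane space, had a log2 fold change of -0.90 (SE 0.24, FDR 0.0122, edgeR), AIFM1, the apoptosis-inducing factor, of -0.56 (FDR 0.00292) and DIABLO, which counteracts inhibitor of apoptosis proteins, of -0.54 (FDR 0.00264). PPIF (-0.53), the matrix cyclophilin, was named after its value was seen. SLC25A4, an ADP/ATP carrier, rose by 0.59 on the log2 scale (SE 0.16, FDR 0.0115, edgeR). VDAC2, the channel known to hold BAK at the outer membrane, had a log2 fold change of -0.02 (SE 0.12, FDR 0.903, edgeR). Without control replicate 1, 2 genes were lower and none was higher, and without control replicate 3 none was higher either.

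Of the inhibitor of apoptosis proteins, which bind caspases or act with death receptors, 5 of 7 were tested and 3 called (60.0%, against 47.7% of all tested genes). BIRC3 and BIRC2 were higher, by 0.91 and 0.69 on the log2 scale (FDR 9.99e-05 and 0.00188, edgeR). BIRC5, which encodes survivin and is transcribed mainly in dividing cells before mitosis, fell from 304, 319 and 289 CPM to 45.2, 52.8 and 74.6 CPM (log2 fold change -2.40, SE 0.18, FDR 4.71e-06, edgeR). XIAP, the direct inhibitor of caspases, had only 1.77 ± 0.145 and 1.75 ± 1.05 CPM (SD, n = 3 each) and a log2 fold change of -0.00 with an SE of 0.39, so that a moderate change would not have been detectable.

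In the death receptor arm, 6 of 7 tested genes (13 listed) were higher and none was lower (85.7% called, against 24.8% of all tested genes called higher and 22.9% lower), at a median of 0.46 on the log2 scale. All 7 had log2 fold changes above 0, so that none was lower at an unadjusted p under 0.05 (edgeR), and DESeq2 called 5 higher and 0 lower. TNFRSF21, a receptor with a death domain, rose by 1.96 on the log2 scale (SE 0.16, FDR 9.61e-06, edgeR), CFLAR, the decoy of caspase 8 that can block the receptor complex, by 1.19 (SE 0.11, FDR 2.02e-05, edgeR), and the adaptors RIPK1 and TRADD by 0.73 and 0.46. Without control replicate 1 or 2 or CD replicate 2, 3 genes of this arm were called, all higher, and 4 were called without control replicate 3. The 2 called genes with the smallest changes were called in only 4 of the 11 alternative settings each.

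**Figure D4:**
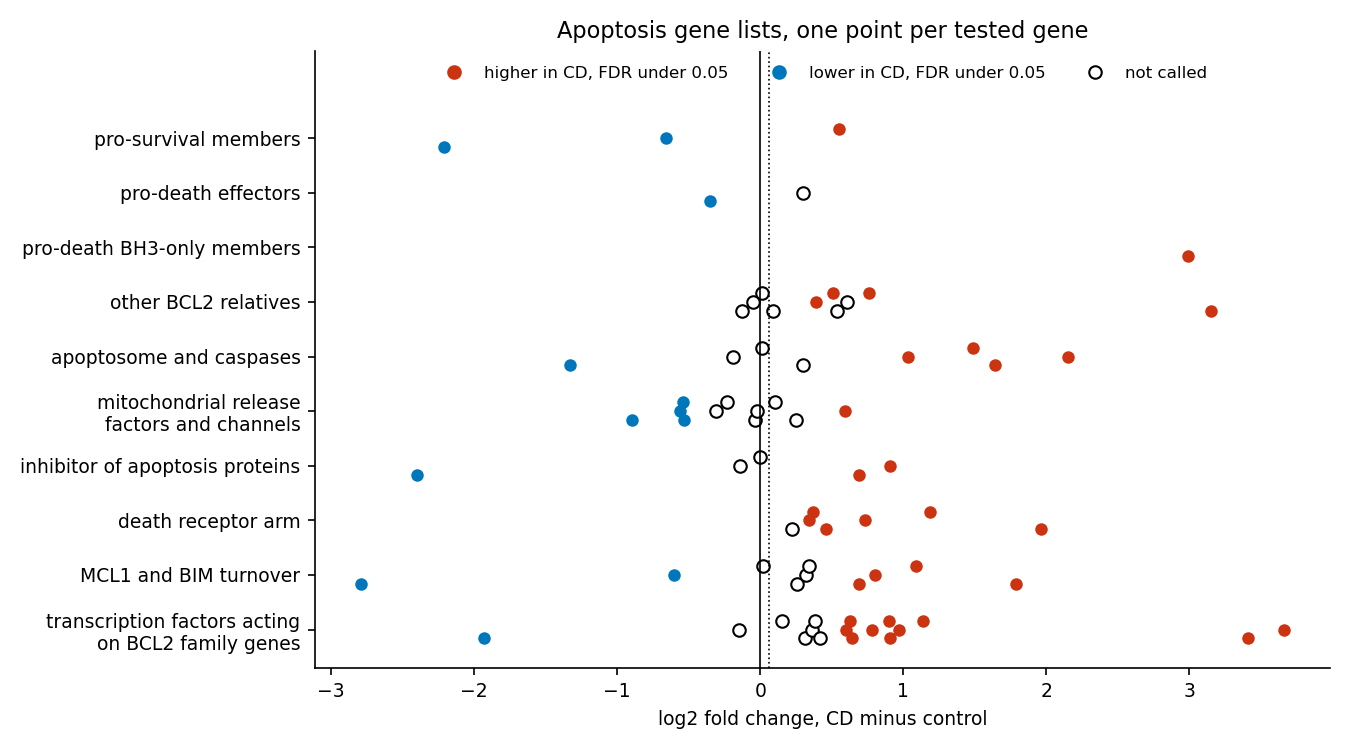
Log2 fold change of every tested gene of the BCL2 family and of 7 other apoptosis lists, by list. Red and blue points were called higher and lower in CD, open points were not called, and the dotted line is the median of all genes tested. Red and blue points together make up between 40.0% (other BCL2 relatives) and 85.7% (death receptor arm) of the tested genes of the 7 other lists, against 47.7% of all genes, and differences between lists were not tested.

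Proteins that control the stability of MCL1 and BIM, through phosphorylation or ubiquitin, made up a list of 13 genes, of which 10 were tested, 4 were higher and 2 lower (60.0% called, against 47.7% of all tested genes). FBXW7, a ubiquitin ligase subunit that targets MCL1, rose by 1.09 on the log2 scale (SE 0.19, FDR 0.00123, edgeR). MAPK9, which encodes the kinase JNK2, rose from 23.1, 29.5 and 25.1 CPM to 89.1, 83.6 and 95.6 CPM (log2 fold change 1.79, SE 0.13, FDR 5.31e-06, edgeR), and MAPK3, which encodes ERK1, a kinase that marks BIM for degradation, rose by 0.80 on the log2 scale (SE 0.12, FDR 3.85e-04, edgeR). CDC20, a mitotic activator of the anaphase-promoting complex, fell by 2.79 on the log2 scale (SE 0.12, FDR 3.04e-07, edgeR). HUWE1, a ligase for MCL1 and the other lower gene, was named after its value was seen (log2 fold change -0.60, FDR 0.0461, edgeR). Only CDC20 was called lower without control replicate 1, 2 or 3 or CD replicate 2, with upper-quartile scaling or without the filter on low counts, and 6 genes were higher without CD replicate 3.

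Of 19 transcription factors known to act on BCL2 family genes, 17 were tested, 10 were higher and 1 lower in CD (64.7% called, against 47.7% of all tested genes), at a median of 0.63 on the log2 scale. ATF3, a stress-induced factor, rose from 44.7, 45.0 and 49.3 CPM to 596, 551 and 608 CPM (log2 fold change 3.66, SE 0.12, FDR 7.93e-08, edgeR). JUN, the target of JNK, rose from 37.7, 39.7 and 34.7 CPM to 342, 429 and 416 CPM (log2 fold change 3.41, SE 0.14, FDR 1.56e-07, edgeR). NFKB1, a subunit of NF-κB, rose by 1.14 on the log2 scale (SE 0.11, FDR 2.22e-05, edgeR), and E2F1 fell by 1.93 on the log2 scale (SE 0.14, FDR 3.89e-06, edgeR). FOXO3 was singled out after its value was seen and went from 48.5, 43.9 and 47.7 CPM to 101, 95 and 64.5 CPM (log2 fold change 0.90, SE 0.17, FDR 0.00166, edgeR). Whether any of these factors acted on the members was not tested.

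**Figure D5:**
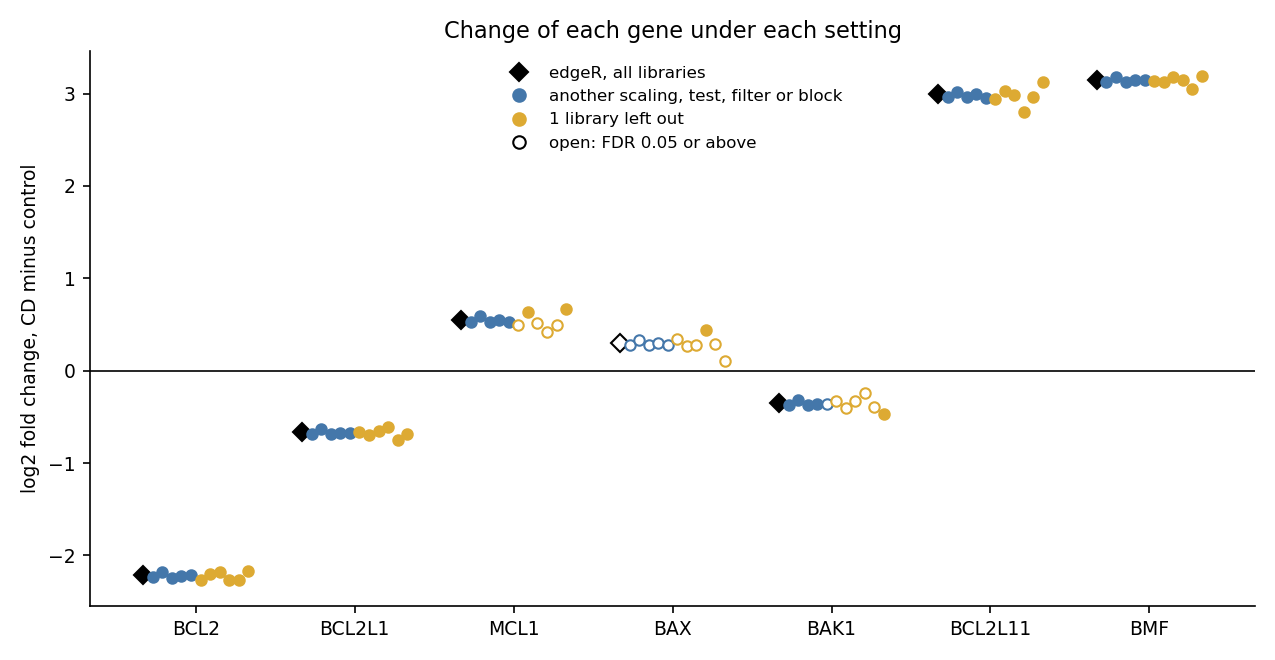
Log2 fold change (vertical axis) of the 6 tested members and BMF with all libraries in edgeR (diamond), under another scaling, test, filter or with a replicate block (blue), and with 1 library left out (yellow). Open symbols have an FDR of 0.05 or above. The points of BCL2, BCL2L1, BCL2L11 and BMF are all filled, whereas MCL1, BAX and BAK1 change between filled and open.

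Over all 11 alternative settings, BCL2 stayed between -2.27 and -2.17, BCL2L1 between -0.75 and -0.61, BCL2L11 between 2.80 and 3.13 and BMF between 3.05 and 3.19 on the log2 scale, and these 4 genes were called in each of them. MCL1 was called in 7, BAK1 in 5 and BAX in 1 of the 11. For 3 against 3 libraries the smallest two-sided p of an exact permutation test is 0.1.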

How the data were processed

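RNA of 3 control and 3 CD libraries of Mv1Lu cells was sequenced as poly(A) mRNA (Nextera XT, NextSeq500). According to the submitters' processing notes and the methods, reads were trimmed with fastp 0.20.1, aligned to the mink assembly NNQGG.v01 with STAR 2.7.2a and compared with DESeq2 1.30.1 in R 4.0.3. The authors deposited raw read counts per gene. The program that counted the reads and its strand setting are not given in the sources used here, so overlapping and antisense genes are uncertain. Rows of totals for reads not assigned to a gene made up 29.3% to 47.2% of all reads and were left out. The deposited normalized values were not used, as their gene identifiers do not follow the order of the counts. Read totals on genes were 13473820 to 18633764 per library.

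The quasi-likelihood test of edgeR 4.0.16 (R 4.3.3) was applied to the counts (filterByExpr with a minimum count of 10 and total of 15, TMM, robust glmQLFit, glmQLFTest, condition as the only term) and Benjamini-Hochberg adjustment over 12148 genes. SE was the log2 fold change divided by the square root of F. The scripts were checked on simulated counts. The alternatives were DESeq2 1.42.0, 2 other scalings, no filter, the replicate number as a block, and each library left out. Members were matched by symbol or, for 8 genes of all lists, by the description in the table. The members and lists were chosen with earlier results of these data known. All members were named, as were all called relatives and, in each further list, up to 4 called genes without overlap between groups, by size of change. Some genes of the lists are not reported here. Other named genes are said to be so, or were not called and are given for their role. Libraries of a group differed beyond sampling noise. Floors for counts cover counting error only. The intervals of the log2 fold changes come from the edgeR fit and include the spread between these libraries.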

Additional observations from a re-analysis of the deposited data

How the results depend on the processing

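The 5 alternatives that kept all libraries left the direction of the 6 tested members as it was, and all calls other than that of BAK1, which was not called with the replicate block (log2 fold change -0.36, FDR 0.0680, edgeR), so that 0 pro-death members were then lower. With each library left out, the log2 fold change of MCL1 lay between 0.42 and 0.67, that of BAX between 0.11 and 0.44 and that of BAK1 between -0.47 and -0.24. Accordingly the number of pro-survival members called higher lay between 0 and 1, of pro-death members called higher between 1 and 2, and of those called lower between 0 and 1. The cause was not tested. The number of all genes called higher lay between 2216 and 3616 and of those called lower between 2194 and 3606 with 1 library left out, the highest being without CD replicate 3. Among all settings, 49.7% to 54.5% of the called genes were higher. DESeq2 called 2858 higher and 2837 lower.

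Control and CD libraries of the same replicate number had correlations of their deviations from the group mean of -0.024, -0.329 and -0.185, so that the numbers were taken as names only. With the replicate block 2772 genes were higher and 2636 lower, and the block changed no call of BCL2, BCL2L1, MCL1, BAX or BCL2L11.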
